A study of Homo sapiens with 12 samples.

Results

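A set of 56 transcribed features was on in every control library of the melanoma lines WM9 and Hs294T and off, or nearly so, in every library of their drug-resistant derivatives. On means at least 10 CPM (counts per 1000000 counts of the library) in all 6 control libraries. Off means at most 1 CPM in all 6 resistant libraries. The 56 features were chosen by these CPM values alone, among the 78932 rows of the count table, so their loss in resistant cells is a description and carries no test. Of the 7712 features that were on in all control libraries, they made up 0.726%. The deposited table names no genes, so each feature is called by the number of its row below the header, and what its gene does cannot be stated.

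Control and resistant cells of WM9 and of Hs294T made up 4 groups of 3 libraries, which the labels call biological replicates. Both lines come from metastatic melanoma and are BRAF-mutant, per the labels. Resistant cells had been kept in rising concentrations of vemurafenib and cobimetinib, ending at 0.4 µM of each, while control cells received rising amounts of the solvent DMSO. Whether a resistant derivative is a single clone or a mixed population is not given in the sources used here. Resistance, the presence of the drugs and separate culture cannot be told apart. The labels of line and cell type could not be checked against marker genes, because no row has a name. Few features were called between the control groups, 3.86% of all features tested, against 42.5% between the resistant groups. With 3 libraries per group, a feature that is not called can still differ. Whether the controls of the lines are independent baselines was not tested.

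BRAF and MEK are kinases of the MAPK cascade, which carries growth signals from the cell surface to transcription factors in the nucleus. Mutant BRAF keeps this cascade active in many melanomas, and vemurafenib blocks BRAF while cobimetinib blocks MEK. Melanoma cells that survive these inhibitors often differ from their parents in which genes they transcribe, including genes of the pigment cell lineage.

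Library totals lay between 16817256 and 22561406 counts, so that 1 count corresponded to between 0.0443 and 0.0595 CPM. WM9 control 2 and 3 were closer to each other than any other control replicates. Their mean chi-square over the 56 features was 6.08, where sampling noise alone gives about 1, against 87.6 to 471 for the other pairs within a control group. Among resistant libraries, where the 56 features have few counts, the mean over 11615 features with at least 20 counts was 3.65 for Hs294T resistant 2 and 3 and 44.4 to 227 for the other pairs. The p-values below set a difference against the spread between these libraries. In the fit of all 12 libraries, that spread was estimated over all 4 groups together. Where summing the near-identical pairs ends a call between the control groups, that is said beside it.

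The 56 features included abundant transcripts of the control cells. Feature row74508 had 655, 889 and 941 CPM in WM9 control 1, 2 and 3, and 882, 1851 and 1960 CPM in Hs294T control 1, 2 and 3. In the resistant libraries it lay between 0.135 and 0.261 CPM. Every control library thus lay far above every resistant library, while the control groups of the lines overlapped.

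Feature row72057 had 852, 568 and 591 CPM in WM9 control and 927, 1150 and 1038 CPM in Hs294T control. Its 11 counts over the WM9 resistant libraries gave a control to resistant ratio of 3772 (95% counting interval 2108 to 7557). Its 38 counts over the Hs294T resistant libraries gave a ratio of 1643 (1197 to 2321). Together row74508 and row72057 held 39.2% of the summed mean control CPM of the 56 features. The third most abundant, row25748, had 159, 149 and 136 CPM in WM9 control and 301, 249 and 414 CPM in Hs294T control, against 4 counts over all 6 resistant libraries.

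Most of the other features were of middling abundance. The mean over the 6 control libraries ranged from 12.7 to 1196 CPM with a median of 47.6 CPM, against a median of 56.6 CPM over all 7712 features on in the controls. It was under 20 CPM in 12 of the 56 features, from 20 to under 100 CPM in 35 and at least 100 CPM in 9. Together the 56 features took up 0.449% ± 0.029 of a WM9 control library and 0.597% ± 0.105 of an Hs294T control library (SD, n = 3 each). Their share was 0.00103% ± 0.00013 in WM9 resistant and 0.00119% ± 0.00023 in Hs294T resistant cells (SD, n = 3 each). The resistant libraries each held between 192 and 276 counts of the whole set, and the controls between 72751 and 145406.

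**Figure D1:**
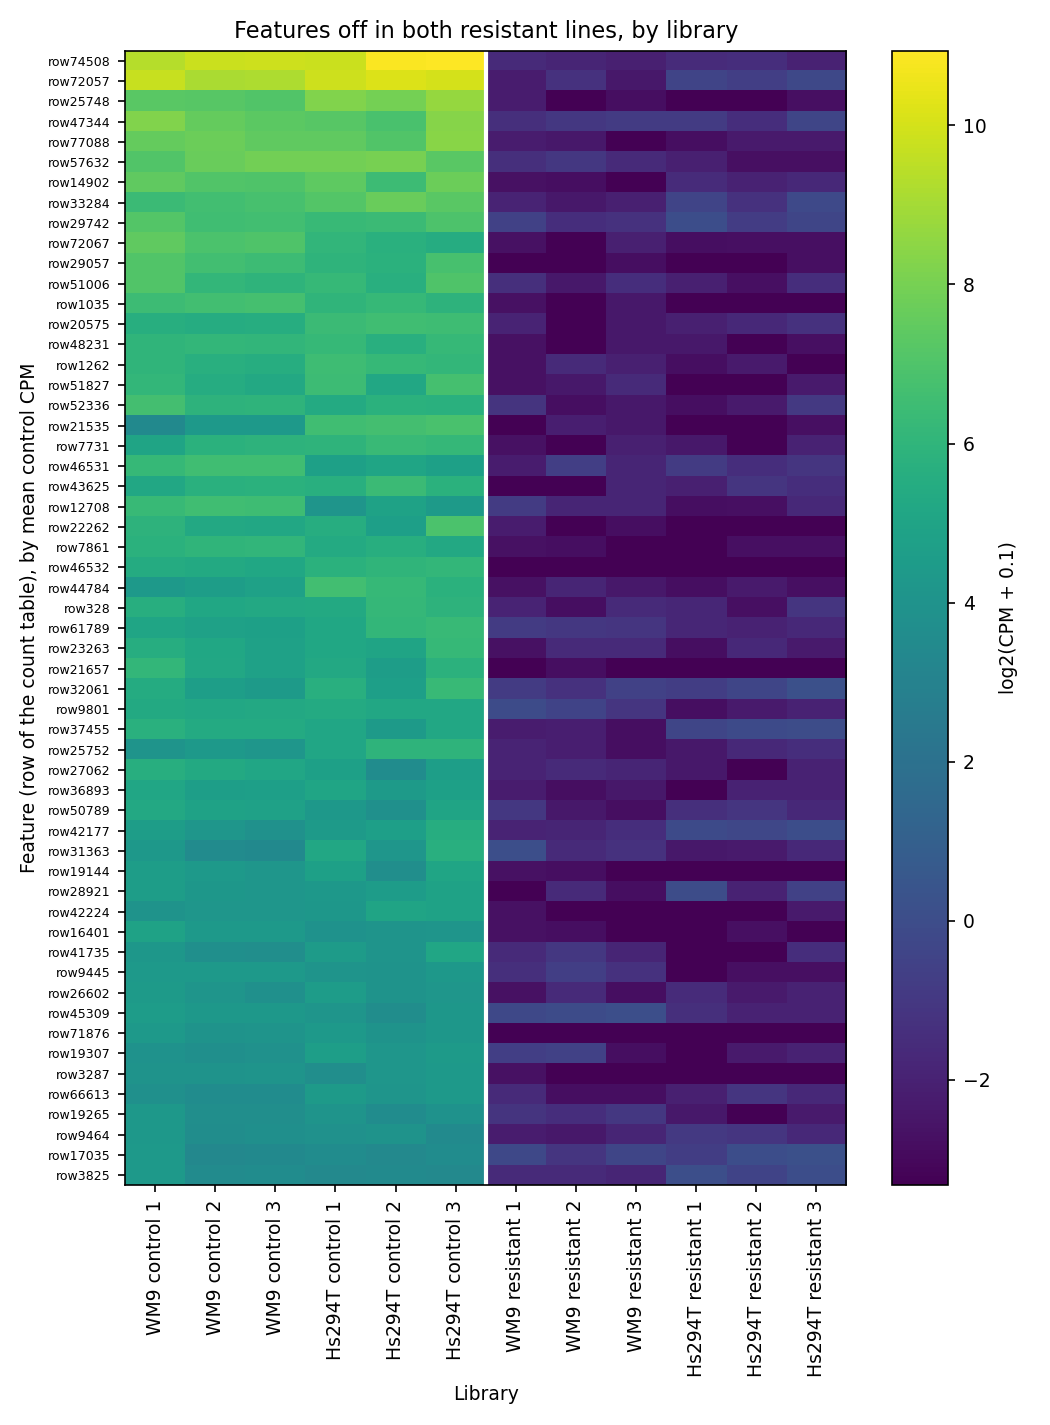
Level of each of the 56 features (rows, ordered by mean control CPM) in each of the 12 libraries (columns), as log2(CPM + 0.1). The 6 control libraries left of the white line hold at least 10 CPM in every row, and the 6 resistant libraries right of it at most 1 CPM, as the selection requires.

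How far each feature was off could be read only to the depth of the libraries. The summed counts over the 6 resistant libraries had a median of 19.5 and a maximum of 84. Features row46532 and row71876 had 0 counts in all of them, and 16 others had between 1 and 10 counts. Feature row46532 had 43.7, 40.1 and 35.9 CPM in WM9 control and 54.5, 64.5 and 70.1 CPM in Hs294T control. A count of 0 was set to a floor of 3 counts per resistant group, by which row46532 was at least 829-fold lower in resistant than in control WM9 cells. In Hs294T it was at least 1262-fold lower. Feature row71876 had 21.1, 15.9 and 16.8 CPM in WM9 control and 21.3, 15.7 and 18.7 CPM in Hs294T control. By the same floor, it was at least 371-fold lower in resistant WM9 cells, and the bound in Hs294T was at least 366-fold lower. Its lower bound is smaller because its control level was lower, and the counts do not show which of the pair was more completely off.

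The ratio of control to resistant CPM, from summed counts, had a median of 373 in WM9 and 377 in Hs294T, with features at 0 counts in a group entered at their lower bound (2 in WM9 and 7 in Hs294T). It was at least 100 in 44 features in WM9, in 45 in Hs294T and in 38 in both. It was under 50 in 5 features in WM9 and in 6 in Hs294T. Features row45309 and row3825, with mean control levels of 18.4 and 12.7 CPM, had the lowest ratios. Feature row45309 stood at 23.5 in WM9 (95% counting interval 17.9 to 31.5), and row3825 at 12.5 in Hs294T (9.42 to 17.01). These intervals cover counting error only. All 56 features passed the low-count filter, as control levels of 10 CPM assure. All 56 were also lower in resistant than in control cells in both lines by edgeR's quasi-likelihood test over the whole table (adjusted p below 0.05). Of the 18615 features tested, 31.4% were lower in WM9, 24.9% in Hs294T and 15.1% in both. The choice of the features fixes that count.

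The cutoffs fell within a continuous range. Just inside, row17035 had 10.1 CPM in its lowest control library, WM9 control 2, and row3825 had 10.4 CPM in Hs294T control 3. Just outside, row37758 had 9.98 CPM and row43387 had 9.91 CPM in their lowest control libraries. At the other cutoff, row17035 and row32061 both reached 0.999 CPM in Hs294T resistant 3, while row27250 reached 1.03 CPM in WM9 resistant 1 and row67800 1.04 CPM in WM9 resistant 3. In 7 of the 56 features the highest resistant library lay above 0.9 CPM.

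The features off in both lines were set beside those off in a single line. Of the 7712 features that were on in all controls, 128 were off in WM9 resistant and 101 in Hs294T resistant libraries. Of the 128 off in WM9 resistant libraries, 43.8% were off in Hs294T resistant libraries as well. Of the 101 off in Hs294T resistant libraries, 55.4% were off in WM9 resistant libraries as well. The 72 features off in WM9 alone had a median of 14.3 CPM in Hs294T resistant against 37.7 CPM in Hs294T control libraries. In 17 of them the Hs294T resistant mean was under 10% of the control mean, and in 13 it was above it. The 45 features off in Hs294T alone had a median of 5.46 CPM in WM9 resistant against 37.1 CPM in WM9 control libraries, with 18 under 10% of the control mean and 4 above it. The reverse set, off in all controls and on in all resistant libraries, held 43 features with a median level of 41.2 CPM where they were on.

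The selection did not use the difference between the lines, so the control groups were compared next. This asked whether the control cells of the lines transcribed the 56 features at like levels. With edgeR's quasi-likelihood test over all 18615 features tested, 7 of the 56 were higher and 3 lower in Hs294T control than in WM9 control (adjusted p below 0.05, n = 3 per group). That is 17.9% of the 56, where 3.86% of all features tested and 2.46% of the 7712 features on in all controls passed. Of all features tested, 2.1% were higher and 1.77% lower in Hs294T. The near-identical control libraries bear on this count. With WM9 control 2 and 3 summed, 2 were higher and 0 lower, where 1.11% of all features passed. Log2 fold changes are on effective library sizes, which correct for composition, while the CPM values are on plain totals.

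Feature row21535 differed most between the controls. It had 10.99, 20.04 and 21.2 CPM in WM9 control and 94.25, 101 and 116 CPM in Hs294T control. The groups were far apart, with a log2 fold change of 2.77 (SE 0.34, edgeR adjusted p = 0.000476, higher in 3 of 3 Hs294T libraries). Both resistant groups were near 0, with 5 counts in WM9 and 1 in Hs294T.

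Feature row44784 had 21.1, 24.6 and 28.1 CPM in WM9 control and 96.5, 74.3 and 54.8 CPM in Hs294T control. The groups did not overlap, and the log2 fold change was 1.79 (SE 0.25, edgeR adjusted p = 0.001). Feature row25752 had 16.5, 20.3 and 18.0 CPM in WM9 control and 35.1, 62.35 and 60.8 CPM in Hs294T control. The lowest Hs294T library still lay above all of WM9, with a log2 fold change of 1.79 (SE 0.33, edgeR adjusted p = 0.00644, and 0.0530 with the near-identical pairs summed). Both row21535 and row44784 passed in each of the 14 other fits tried. The other 8 lost their call in at least 1 of these, and all 10 kept their direction in all 14.

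In the other direction, row12708 had 77.3, 95.02 and 89.9 CPM in WM9 control and 17.3, 29.8 and 21.5 CPM in Hs294T control. All WM9 libraries lay above all Hs294T libraries, with a log2 fold change of -1.68 (SE 0.34, edgeR adjusted p = 0.0133). Feature row46531 had 75.2, 95.9 and 92.9 CPM in WM9 control and 26.95, 33.4 and 27.6 CPM in Hs294T control. Its log2 fold change was -1.36 (SE 0.29, edgeR adjusted p = 0.0154). Feature row72067 had 173, 120 and 129 CPM in WM9 control and 65.5, 52.6 and 45.1 CPM in Hs294T control, a log2 fold change of -1.15 (SE 0.24, edgeR adjusted p = 0.0141). With the near-identical pairs summed, the edgeR adjusted p was 0.0878 for row12708, 0.133 for row46531 and 0.106 for row72067. None of these 3 passed without WM9 control 2, without WM9 control 3 or without Hs294T control 3.

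The remaining 4 features called were row25748, row61789, row20575 and row31363, all higher in Hs294T, with log2 fold changes between 1.17 and 1.55. With the near-identical pairs summed none of these 4 passed, and their edgeR adjusted p lay between 0.112 and 0.216. Naming row61789 and row31363 followed from their values. The 3 control libraries of each line overlapped for row31363 on plain totals, with 19.0, 11.8 and 10.8 CPM in WM9 and 37.1, 17.7 and 51.6 CPM in Hs294T, and it was called in 6 of the 14 other fits. The other 46 features were not called, and the largest absolute log2 fold change among them was 1.17, that of row74508 (SE 0.36, edgeR adjusted p = 0.0885). Of the 56, 45 were less than 2-fold apart. The median log2 fold change was 0.34 over the 56, 0.12 over the features on in all controls and -0.01 over all features tested. Without Hs294T control 3 it was 0.22 over the 56.

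Without a model, the 3 control libraries of the lines did not overlap in 26 of the 56 features, 14 with Hs294T higher and 12 with WM9 higher. Over all features tested these shares were 8.34% and 16.6%. The split depended on the scaling. On effective library sizes, 17 features had Hs294T higher and 5 had WM9 higher, where 10.3% and 12.6% of all features did. These shares include features of lower level and were not taken over the features on in all controls alone.

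**Figure D2:**
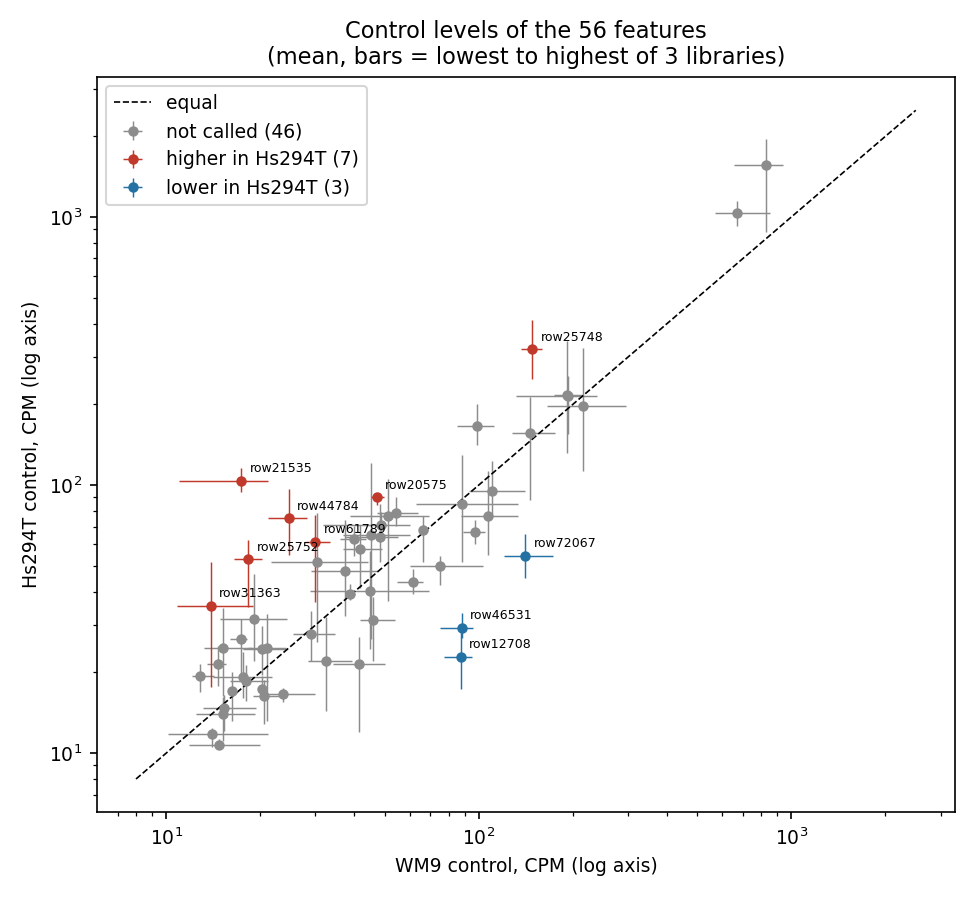
Mean CPM of each of the 56 features in WM9 control (horizontal) and Hs294T control (vertical), on log axes, with bars from the lowest to the highest of 3 libraries. Colours mark the 7 features called higher and the 3 called lower in Hs294T, and the dashed line marks equal levels.

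The 56 features differed in how far control replicates spread. The coefficient of variation within a control group, averaged over the lines, had a median of 21.0%, against 16.6% over the 7712 features on in all controls. This is a description with no test. The steadiest was row20575, at 5.28%, with 49.6, 45.0 and 46.7 CPM in WM9 control and 84.1, 93.4 and 92.3 CPM in Hs294T control. The most variable was row22262, at 52.8%, with 60.4, 38.8 and 36.8 CPM in WM9 control and 46.9, 26.6 and 121 CPM in Hs294T control. Hs294T control 3 alone set its high mean in that line.

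Hs294T control 3 and Hs294T control 2 lay far apart for a group of the features. Their difference alone does not show which of them stood out. On effective library sizes, 9 of the 56, or 16.1%, were more than 2-fold higher in Hs294T control 3 than in Hs294T control 2, against 2.61% of the features on in all controls. The difference, on log2(CPM + 0.5), ranged from -0.98 to 1.91 with a median of -0.04. Hs294T control 1 was the lowest of its group in 40 of the 56 features, where it was the lowest in 37.8% of all features tested. On plain totals it was the lowest in 20 of the 56 and in 20.9% of all features, and Hs294T control 2 was the lowest in 27 and in 54.0%. The features that were higher in Hs294T control 3 than in control 2 tended to be higher in WM9 control 1 than in WM9 control 2 and 3 (Pearson r 0.58, Spearman rho 0.56, n = 56 features). Over the 7712 features on in all controls the same correlations were 0.64 and 0.68. The points of each correlation share the same 5 libraries and their scaling, and features are not independent replicates.

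**Figure D3:**
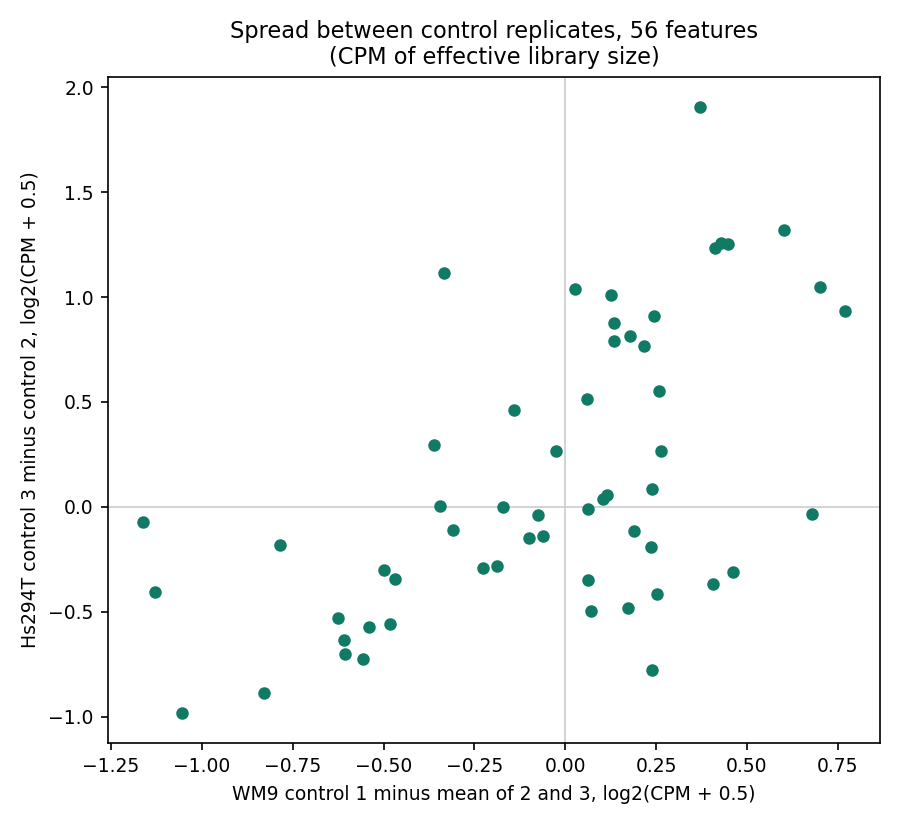
Each point is 1 of the 56 features. The horizontal axis gives WM9 control 1 minus the mean of WM9 control 2 and 3, the vertical axis Hs294T control 3 minus Hs294T control 2, both as log2(CPM + 0.5) on effective library sizes. The vertical values reach from -0.98 to 1.91.

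The residual transcription in resistant cells could be compared between the lines for few of the features. Only 8 of the 56 had enough counts in the resistant libraries to pass the low-count filter there. Fitted on those 6 libraries alone with edgeR's quasi-likelihood test, 4 of the 8 were higher and 1 lower in Hs294T resistant than in WM9 resistant cells (adjusted p below 0.05, n = 3 per group), where 47.3% of the features so tested passed. The features called in this fit passed the low-count filter through the group in which they were higher. The filter thus favoured features that differ, and these calls are a description. In the fit of all 12 libraries all 56 were tested, most of them admitted through their control levels. There 7 were higher and 7 lower, where 42.5% of all features passed, 20.7% as higher and 21.7% as lower. With the near-identical pairs summed, 6 were higher and 4 lower, where 29.4% of all features passed. The counts of both fits are given for completeness and support nothing here.

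Among the 8, row37455 had 2, 3 and 1 counts in WM9 resistant and 15, 16 and 17 counts in Hs294T resistant libraries. The groups did not overlap, with a log2 fold change of 2.83 in the resistant libraries alone (SE 0.50, edgeR adjusted p = 0.000664). Because the filter favoured features that differ, the values and p-values in this paragraph are a description only. Feature row45309 went the other way, with 13, 19 and 22 counts in WM9 resistant and 6, 3 and 3 counts in Hs294T resistant libraries, again without overlap (log2 fold change -2.25, SE 0.44, edgeR adjusted p = 0.00146). The other 3 called were row3825, row42177 and row72057, all higher in Hs294T, with log2 fold changes from 1.68 to 1.83. Features row17035, row32061 and row29742 had 84, 71 and 65 counts over the 6 libraries and were not called, with log2 fold changes of 0.26 (SE 0.46), 0.49 (SE 0.45) and 0.70 (SE 0.49). The names in this paragraph beyond those of the stated rule were chosen after their values were seen.

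**Figure D4:**
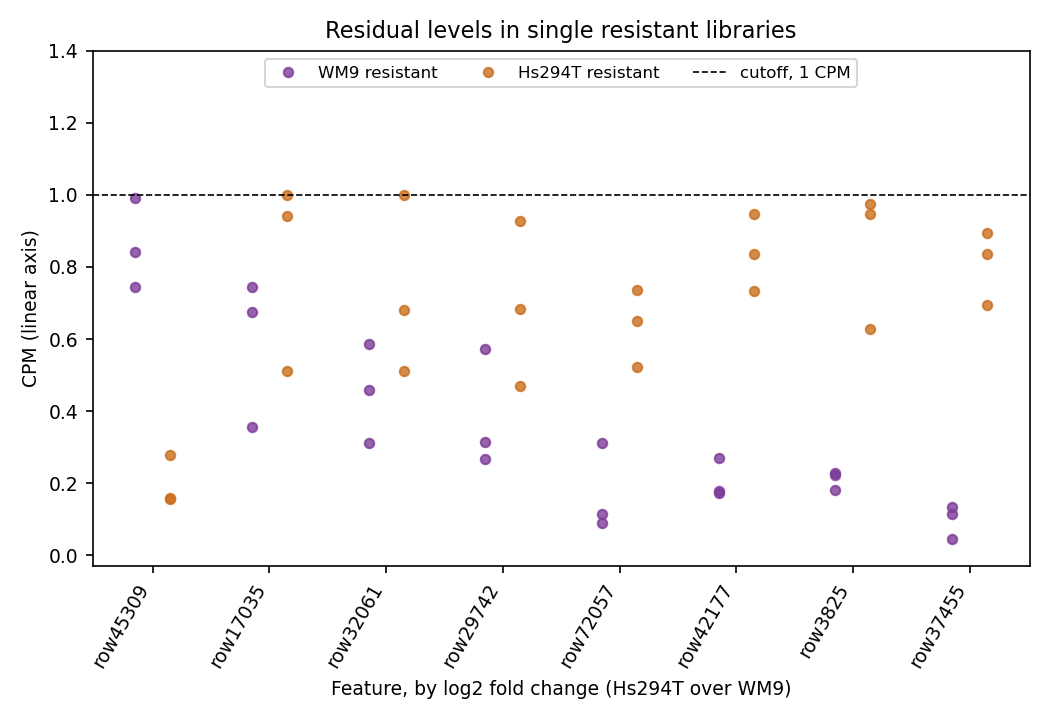
CPM in each resistant library for the 8 features that passed the low-count filter in the resistant libraries alone, on a linear axis that starts just below 0. Points are single libraries, the dashed line is the cutoff of 1 CPM, and features are ordered by log2 fold change from lower to higher in Hs294T. Feature row45309, at the left, was higher in WM9 resistant libraries, and row37455, at the right, was higher in Hs294T resistant libraries.

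The features were spread over the table, from row 328 to row 77088, with a median of 850 rows from each to the next. What the order of rows stands for is not given in the sources used here. In 2 places they lay within 5 rows of each other: row46531 with row46532, which are adjacent, and row25748 with row25752. Between the controls, row46531 was called lower in Hs294T, as given above with its dependence on the near-identical libraries. Feature row46532 was not called, with a log2 fold change of 0.90 (SE 0.25, edgeR adjusted p = 0.0774). In resistant libraries row46531 kept 40 counts and row46532 had 0. The pair row25748 and row25752 were both called higher in Hs294T control, though not with the near-identical pairs summed. Features that overlap or share reads were not told apart.

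Rows next to the 56 features were read for the change from control to resistant cells, as a description. Of 110 such rows, 22 were tested, and 8 of these, or 36.4%, were lower in resistant cells of both lines by edgeR's quasi-likelihood test, where 15.1% of all features tested were. Among these 8, 6 were not on in all controls. These 6 were near 0 in resistant libraries and passed the low-count filter through their control levels. The filter thus favoured rows that were lower in resistant cells. Of the 8 adjacent rows that were on in all controls, 2 were lower in both lines, where 18.3% of the 7712 features on in all controls were. Up to 5 rows away, 39 of 128 tested rows were lower in both lines and 10 were higher in both, where 15.4% of all features tested were higher in both. Of the 59 rows at this distance that were on in all controls, 15 were lower in both lines. The median log2 fold change of the 128 rows was -0.63 in WM9 and -0.70 in Hs294T, against -0.09 and -0.07 over all features tested. Some of the 128 passed the filter through 1 side only, as row14907 did through control and row25751 through resistant libraries.

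**Figure D5:**
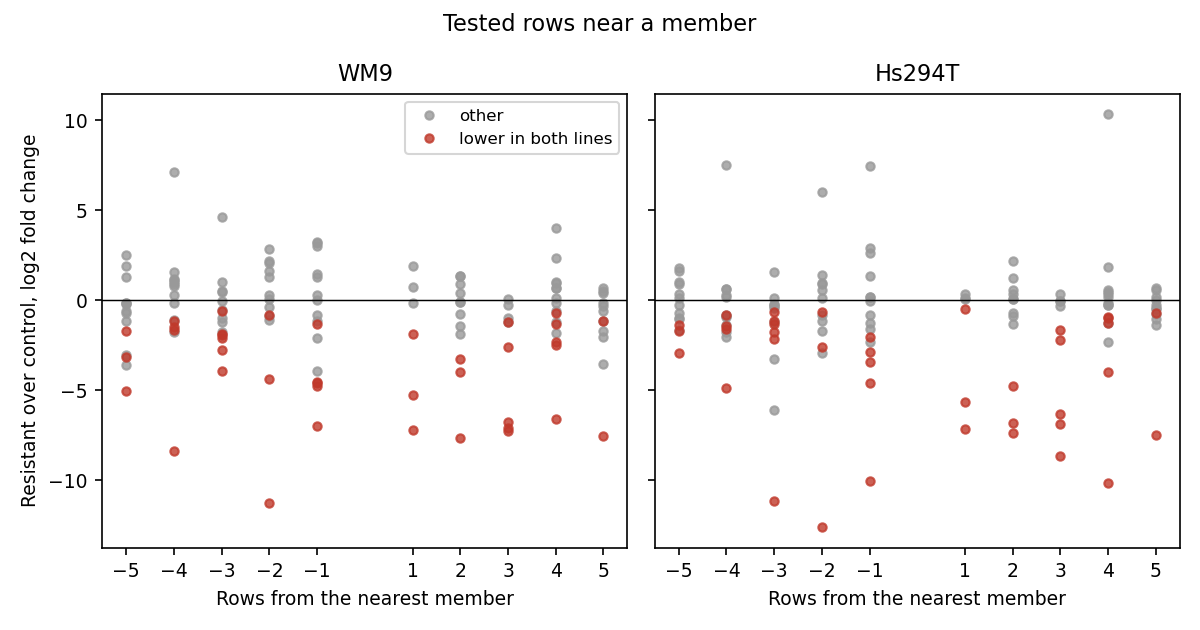
Log2 fold change from control to resistant cells in WM9 (left) and Hs294T (right) for each of the 128 tested rows up to 5 rows from one of the 56 features, by distance in rows. The 39 red points were lower in both lines; points above 0 were higher in resistant cells.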

How the data were processed

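Transcripts of 12 libraries were sequenced after stranded mRNA library preparation, per the labels' protocols. The authors deposited raw counts, 1 column per library, in 78932 unnamed rows. Per the submitters' processing notes, the build was GRCh38 and the tools included STAR 2.7.11b, featureCounts of Subread 2.0.8, fastp 0.24.0 and FastQC 0.12.1. The annotation and the use of strand were not given in the sources used here. Each column was matched to its library by the labels.

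All libraries entered 1 edgeR 4.0.16 fit (R 4.3.3) with 4 groups: filterByExpr with a minimum count of 10, TMM factors, robust quasi-likelihood F test, two-sided, Benjamini-Hochberg adjustment over 18615 features. DESeq2 1.42.0 was an alternative. In simulated counts for the contrast of the controls over 18117 features, the test recovered 35% of 100 features set 2-fold apart and 98% of 100 set 4-fold apart and made 12 false calls. Counts drawn independently lack the spread that libraries share.

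The 56 features, the comparisons and the alternatives were chosen with earlier results of these data known. Named features are the extremes of control level, residual level, cutoff distance, difference and variation of the controls, close rows and features at 0 counts. Gene lists, marker genes and sequences were not used here, since no row has a name.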

Additional observations from a re-analysis of the deposited data

How the results depend on the processing

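The selection gave 97 features with group means in place of every library, 50 on effective library sizes, 75 when on was 5 CPM and off 0.5 CPM, and 48 when on was 20 CPM and off 2 CPM, where their mean share of control counts was 0.620% in place of 0.523%. It gave between 56 and 64 when a library was left out. Leaving out a library or using group means can only relax the rule, so neither number could fall below 56.

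Between the controls, DESeq2 called 16 features higher and 3 lower in Hs294T at an adjusted p below 0.05 (6.9% of all features called). At an adjusted p below 0.01, edgeR called 3 higher and 0 lower (1.49% of all), with 4 lower at an unadjusted p below 0.05. With near-identical pairs summed 2 were higher and 0 lower (1.11% of all; 18 and 4 unadjusted). Leaving out a library gave 3 to 13 higher, the 13 without Hs294T control 1 (7.13% of all) and 3 without WM9 control 1, 2 or 3 or Hs294T control 3 (1.38% to 2.19% of all). It gave 0 to 3 lower, with 0 without WM9 control 2, WM9 control 3 or Hs294T control 3 (4, 4 and 6 unadjusted). The features without overlap and with WM9 higher were 5 under TMM and 5 under upper-quartile factors, in place of 12.

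Replicate numbers paired the control libraries in part. Deviations from group means correlated at 0.65, 0.38 and 0.06 for numbers 1, 2 and 3. WM9 control 1 and 2 correlated best with the Hs294T control of the same number, and WM9 control 3 with Hs294T control 2 (0.59). In the resistant groups the same numbers correlated at 0.52, 0.42 and -0.02. Whether libraries of the same number were handled together was not tested. With the replicate number as a block, 4 features were higher and 3 lower in Hs294T control (2.72% of all). Uncalled values changed sign for row17035 (log2 0.0212 under DESeq2-type factors, 0.0208 under DESeq2, 0.0353 without a filter, 0.0201 with the block and -0.14 to 0.27 when a library was left out) and for row22262 (-0.13 without Hs294T control 3 and up to 1.07 without another library).

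Between the resistant groups, 4 were higher and 1 lower when these libraries were fitted alone (47.3% of all), 3 and 4 at an adjusted p below 0.01 (29.6%), and 4 lower with near-identical pairs summed (29.4%). Leaving out a library gave 4 to 7 higher (4 without Hs294T resistant 1 or 3) and 4 to 7 lower (4 without WM9 resistant 1 or Hs294T resistant 2), where 31.5% to 40.5% of all features passed. In these libraries 1 count is at least 0.0443 CPM and no feature exceeds 1 CPM.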
